A study of Mus musculus with 5 samples.

Results

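The RNAs encoded by the mitochondrial genome were examined in hair follicle stem cells of mouse back skin. The class was taken as every feature whose symbol begins with mt-, which gave 36 of the 30840 features in the table: 2 ribosomal RNAs (rRNAs), 13 messenger RNAs (mRNAs) and 21 transfer RNAs (tRNAs). Of the 22 mitochondrial tRNA genes in the reference annotation, mt-Tt was not analysed here. Both groups of mice were Ring1a-/- and Ring1bflox/flox and received 1% RU-486 topically every day for 10 days, starting at postnatal day 50, and cells were collected at postnatal day 70. The PRC1 i2KO group (3 libraries, numbered 1 to 3) additionally carried K15-CrePR1, a Cre recombinase that is driven in keratin 15-expressing cells and switched on by RU-486. The Control group (2 libraries, numbered 2 and 3) is labelled without it, so by their labels the groups differ in the transgene and the Ring1b deletion it is meant to bring about. Ring1a and Ring1b are the ubiquitin ligases of Polycomb repressive complex 1 (PRC1), which place the repressive mark H2AK119ub, and the series asks how that mark bears on stem cell quiescence. For each library 50000 cells were sorted as EpCAM+ Sca1- α6-integrin-high CD34+, and polyadenylated RNA was sequenced.

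Mitochondrial DNA is a small circle held in several copies per mitochondrion, without nucleosomes, so it carries no histone mark. Each strand is transcribed as a long precursor, from which tRNAs are cut out and thereby free the rRNAs and mRNAs between them. The heavy-strand precursor gives both rRNAs and all mRNAs but one, and the light-strand precursor gives mt-Nd6 and several tRNAs. The mRNAs encode membrane subunits of respiratory complexes I, III, IV and of the ATP synthase, whose other subunits are nuclear-encoded. Most mitochondrial mRNAs carry short poly(A) tails, mt-rRNAs carry shorter ones and mature tRNAs carry none, so a poly(A)-selected library sees these kinds of RNA with different efficiency.

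Some sequences bear on how reads of this class can be assigned, and they are shown here from the GENCODE M21 transcripts of build GRCm38 (the submitters' notes name mm39, and no measured value was read by coordinates). The tRNA features with the most counts were mt-Ts1, mt-Tp and mt-Tl1. In mt-Ts1 the 3 capitals are the bases opposite the end of mt-Co1, the mRNA with the most counts, on the other strand. The genes lie at chrM:6870-6938 (minus strand), chrM:15356-15422 (minus strand) and chrM:2676-2750 (plus strand).
mt-Ts1: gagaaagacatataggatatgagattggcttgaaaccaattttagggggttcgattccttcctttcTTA
mt-Tp: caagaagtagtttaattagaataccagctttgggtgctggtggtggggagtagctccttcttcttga
mt-Tl1: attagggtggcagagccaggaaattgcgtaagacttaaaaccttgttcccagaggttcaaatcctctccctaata

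Some neighbouring mRNAs on the same strand share bases. mt-Atp8 and mt-Atp6 share 43 bases (capitals, in chrM:7915-7981) and mt-Nd4l and mt-Nd4 share 7 (capitals, in chrM:10155-10185), while mt-Atp6 and mt-Co3 share 1 (not shown). A read lying in these bases can be assigned to either gene of the pair. No tRNA gene is annotated between the genes of these pairs, so both genes of a pair may lie on 1 RNA. The mRNAs are counted here as annotated genes, and their lengths are those of the annotated genes.
mt-Atp8 and mt-Atp6: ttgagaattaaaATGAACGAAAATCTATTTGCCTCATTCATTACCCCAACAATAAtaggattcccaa
mt-Nd4l and mt-Nd4: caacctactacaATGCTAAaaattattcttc

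The nuclear genome also holds pseudogene copies of mitochondrial DNA. The last 483 bases of mt-Co1 differ from the nuclear copy Gm29216 by a single base, A1066T counted from the 5′ end of mt-Co1, shown in capitals (mt-Co1 stretch at chrM:6390-6413, plus strand).
mt-Co1: ggaAttgttttatccaactcatcc
Gm29216: ggaTttgttttatccaactcatcc

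Libraries held between 11626313 (Control 3) and 43307892 (PRC1 i2KO 2) counts, so 1 count stood for 0.0203 to 0.0793 CPM (the counts-per-million scale, with library sizes adjusted by TMM). The cells carried the bulge marker Krt15 at 3418 to 5076 CPM, and 12 bulge markers summed to 12695 and 13348 CPM in Control against 14409, 14356 and 11781 CPM in PRC1 i2KO. Of tissues rich in mitochondria, the muscle marker Acta1 had no count in any library and Ckm lay at 0.906 to 3.77 CPM, and the adipocyte marker Plin1 lay at 0.340 to 1.04 CPM. The gene-level values of Rnf2 (Ring1b) did not separate the groups, at 27.7 and 37.5 CPM in the controls and 33.1 to 39.9 CPM in PRC1 i2KO. Ring1 (Ring1a), which by the labels is lost in both groups, was at 1.58 to 3.67 CPM in PRC1 i2KO, at 1.87 CPM in Control 2 and higher in Control 3. These counts are per gene and not per exon, so they do not show whether exons meant to be deleted were lost. The labels do not say whether libraries of a group came from separate mice, so p-values measure the spread between libraries, which may be technical.

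Mitochondrially encoded RNA took 21.2% to 38.4% of all counts, and its share was higher on average in PRC1 i2KO. The 36 features together took 21.2% and 27.4% of counts in Control 2 and 3, and 35.9%, 26.6% and 38.4% in PRC1 i2KO 1, 2 and 3. The rRNAs made up most of this, with 16.7% and 22.6% of counts in the controls and 29.7%, 21.4% and 32.0% in PRC1 i2KO. PRC1 i2KO 2 therefore lay between the controls for rRNA, and the other two PRC1 i2KO libraries lay above both. The mRNAs took 4.54% and 4.86% in the controls and 6.20%, 5.11% and 6.43% in PRC1 i2KO, so for mRNA the groups did not overlap. The tRNA features took 0.00303% and 0.00385% in the controls and 0.00551%, 0.00518% and 0.00367% in PRC1 i2KO, where the groups overlapped. As a share of summed TPM, which is scaled for transcript length, the rRNAs took 18.1% and 19.1% in Control against 25.9%, 20.7% and 28.0% in PRC1 i2KO. On that scale the groups did not overlap for rRNA, nor for the whole class (24.3% and 24.2% against 33.3%, 27.3% and 35.4%) or for tRNA (0.266% and 0.287% against 0.440%, 0.420% and 0.318%). The 95% Wilson intervals of the shares of counts were at most 0.0256 percentage points to either side and cover counting error only.

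The mean mRNA share was 4.70% ± 0.227 (SD, n = 2) in Control and 5.91% ± 0.703 (SD, n = 3) in PRC1 i2KO, a difference of 1.21 percentage points (exact two-sided permutation test, p = 0.2). For rRNA the means were 19.6% ± 4.18 (SD, n = 2) and 27.7% ± 5.54 (SD, n = 3), a difference of 8.08 points (exact permutation p = 0.4) that was 5.13 points without Control 2. For the whole class the difference was 9.29 points, and 6.18 without Control 2. With 2 libraries against 3 there are 10 assignments and the smallest p possible is 0.2, so no share could pass 0.05. Adjusted over the 4 shares (rRNA, mRNA, tRNA and all), each p was 0.4. Without mt-rRNA in the total, the mRNAs took 5.45% and 6.28% in the controls and 8.82%, 6.51% and 9.45% in PRC1 i2KO, again with no overlap. With the same total the tRNAs took 0.00364% and 0.00498% in Control against 0.00784%, 0.00659% and 0.00539% in PRC1 i2KO, so that here they did not overlap either. Set against the counts of protein-coding features alone, the differences were 15.3 points for rRNA, 2.54 for mRNA and 17.9 for the whole class. In bulk RNA a higher mitochondrial share cannot be told apart from less nuclear-encoded RNA per cell or from a change in the cells collected.

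**Figure D1:**
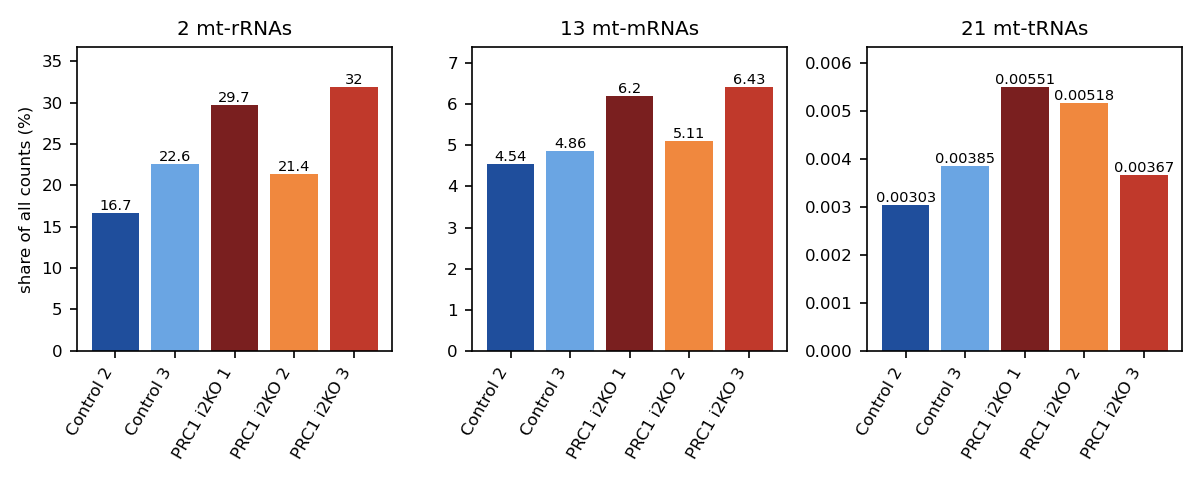
Share of all counts (%) taken by mitochondrial rRNAs, mRNAs and tRNAs in each of the 5 libraries, 1 bar per library. The mRNA bars of PRC1 i2KO, 5.11% to 6.43%, all stand above the controls, at 4.54% and 4.86%, while the rRNA bar of PRC1 i2KO 2 (21.4%) lies between the controls.

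Tested gene by gene with edgeR over 22181 genes, no mitochondrial RNA passed as changed, while nearly all rRNAs and mRNAs lay higher in PRC1 i2KO. All 13 mRNAs and both rRNAs had a positive log2 fold change (PRC1 i2KO over Control), with a median of 0.71 over the mRNAs (range 0.40 to 1.09), where the median of all genes tested was 0.0053 and 50.4% of them were positive. Of the 23 members that passed the filter on low counts (both rRNAs, all 13 mRNAs and 8 tRNAs), 0 were called higher and 0 lower at an adjusted p under 0.05, a threshold that 0.126% of all genes passed as higher and 0% as lower. At an unadjusted p under 0.05, 14 of the 15 rRNAs and mRNAs were higher and none lower, against 7.43% and 3.51% of all genes, and 0 of the 8 tested tRNAs passed in either direction. In CPM, all PRC1 i2KO libraries lay above both controls for 13 of the 15, as they did for 14.6% of all genes. The exceptions were mt-Rnr1 and mt-Co1. The lowest adjusted p among the mRNAs was 0.165 and the highest 0.470.

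Other tools differed on the call. DESeq2 called 9 of the 13 mRNAs higher (mt-Nd3, mt-Nd4, mt-Nd4l, mt-Nd5, mt-Cytb, mt-Co2, mt-Co3, mt-Atp6 and mt-Atp8), among 745 genes higher and 163 lower of 30631 in all. By limma-voom 0 members were called, and limma on log2(TPM + 1) called 0, with 0 members past an unadjusted p of 0.05. TPM, the transcripts-per-million scale, also allows for transcript length. On that scale the median difference of the 13 mRNAs was 0.39, where the median of all genes was -0.19. In TPM 13 of the 15 rRNAs and mRNAs still had both controls below all PRC1 i2KO libraries, as had 7.01% of all genes, the exceptions there being mt-Nd2 and mt-Co1. With library totals alone and no scaling factors, the mRNA median was 0.44, with all genes at -0.26. The distance of the mRNA median from that of all genes was thus 0.71 by TMM, 0.69 by library totals and 0.58 in log2(TPM + 1).

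The rRNAs were the most abundant features of every library. The 12S rRNA, mt-Rnr1 (ENSMUSG00000064337.1), a component of the small mitochondrial ribosomal subunit, was at 84596 and 122889 CPM in Control 2 and 3 and at 187794, 121114 and 182702 CPM in PRC1 i2KO 1, 2 and 3. PRC1 i2KO 2 lay just below Control 3, so the groups overlapped (log2 fold change 0.66 ± 0.21 (SE), edgeR adjusted p = 0.291). The 16S rRNA, mt-Rnr2 (ENSMUSG00000064339.1), of the large subunit, was at 60616 and 85320 CPM in Control against 158997, 88278 and 167681 CPM in PRC1 i2KO. Here every PRC1 i2KO library lay above both controls, PRC1 i2KO 2 by a small margin (log2 fold change 0.92 ± 0.26, edgeR adjusted p = 0.240). Without PRC1 i2KO 2 the gene passed (1.16, edgeR adjusted p = 0.0383), as did mt-Nd2 and mt-Cytb, where 39 of 21216 genes passed as higher.

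Both rRNAs come from the same precursor, and the count of 16S per 12S read was 0.717 and 0.694 in the controls and 0.847, 0.729 and 0.918 in PRC1 i2KO. All PRC1 i2KO values stood above both controls, a mean difference of 0.23 in log2 (exact permutation p = 0.2, the smallest possible). The ratio of rRNA to mRNA counts was 3.67 and 4.64 in the controls and 4.80, 4.19 and 4.97 in PRC1 i2KO, and overlapped (log2 difference 0.17, exact permutation p = 0.4). That difference was -0.00035 without Control 2. Adjusted over the 4 ratios compared (these, and those for mt-Nd6 and the tRNAs below), each p was 0.8.

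Complex I, the NADH dehydrogenase that feeds electrons into the respiratory chain, has 7 mitochondrially encoded subunits. Its most abundant mRNA, mt-Nd4, was at 5104 and 5131 CPM in Control against 9284, 6440 and 9000 CPM in PRC1 i2KO (log2 fold change 0.69 ± 0.17, edgeR adjusted p = 0.195). The controls were nearly equal, and each PRC1 i2KO library lay above them. mt-Nd5 was at 3429 and 3877 CPM in Control against 6666, 4708 and 6589 CPM in PRC1 i2KO (log2 fold change 0.71 ± 0.17, edgeR adjusted p = 0.190). mt-Nd1 was at 2841 and 2917 CPM in Control against 5241, 3706 and 4509 CPM in PRC1 i2KO (log2 fold change 0.64 ± 0.16, edgeR adjusted p = 0.205). These proteins form the membrane arm of the complex, which pumps protons.

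mt-Nd2, another membrane-arm subunit, was at 1813 and 1931 CPM in Control against 3965, 2193 and 3934 CPM in PRC1 i2KO (log2 fold change 0.85 ± 0.24, edgeR adjusted p = 0.250). PRC1 i2KO 2 stood close to the controls for this gene. mt-Nd4l, which overlaps mt-Nd4, was at 1041 and 1121 CPM in Control against 2283, 1498 and 1900 CPM in PRC1 i2KO (log2 fold change 0.81 ± 0.19, edgeR adjusted p = 0.178). mt-Nd3, whose protein helps couple electron transfer to proton pumping, had the lowest counts of the mRNAs, with 78.1 and 76.5 CPM in the controls and 211, 127 and 136 CPM in PRC1 i2KO (log2 fold change 1.03 ± 0.25, edgeR adjusted p = 0.190). Its controls agreed closely and all 3 PRC1 i2KO libraries were above them.

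mt-Nd6 is the one mRNA of the light-strand precursor. It was at 338 and 429 CPM in Control against 669, 460 and 537 CPM in PRC1 i2KO. The groups did not overlap, but the gap between Control 3 and PRC1 i2KO 2 was small (0.53 ± 0.20, edgeR adjusted p = 0.381). Relative to the 12 heavy-strand mRNAs, the ratio of mt-Nd6 counts was 0.00863 and 0.00966 in the controls and 0.00934, 0.00929 and 0.00768 in PRC1 i2KO. The 2 groups overlapped in this ratio (log2 difference -0.065, exact permutation p = 0.8), and its sign turned without Control 3 (0.018) or without PRC1 i2KO 3 (0.028). The sources used here do not give the strand setting of the counting, so reads of mt-Nd6 and of the heavy-strand transcript opposite it cannot be told apart with certainty.

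Complex III passes electrons to cytochrome c, and cytochrome b is its only mitochondrially encoded subunit. Its mRNA mt-Cytb was at 4587 and 5131 CPM in Control against 9351, 6448 and 9294 CPM in PRC1 i2KO. All PRC1 i2KO libraries lay above the controls (log2 fold change 0.78 ± 0.18 (SE), edgeR adjusted p = 0.172). Without PRC1 i2KO 2 the gene passed (0.94, adjusted p = 0.0436), as it did with no filter on low counts (0.80, adjusted p = 0.0367).

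Complex IV, cytochrome c oxidase, reduces oxygen, and its catalytic core is encoded by mt-Co1, mt-Co2 and mt-Co3. mt-Co1 was the most abundant mRNA of the class, at 15306 and 18671 CPM in Control against 24347, 17046 and 25710 CPM in PRC1 i2KO. PRC1 i2KO 2 lay between the controls, and the log2 fold change was the smallest of the 13 mRNAs (0.40 ± 0.18, edgeR adjusted p = 0.470). mt-Co2 was at 1749 and 1886 CPM in Control against 3383, 2520 and 2872 CPM in PRC1 i2KO (log2 fold change 0.69 ± 0.16, edgeR adjusted p = 0.177). mt-Co3 was at 1002 and 1239 CPM in Control against 1936, 1524 and 1895 CPM in PRC1 i2KO (log2 fold change 0.67 ± 0.17, edgeR adjusted p = 0.202). For mt-Co2 and mt-Co3 each PRC1 i2KO library was above both controls.

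The ATP synthase uses the proton gradient to make ATP, and its membrane part holds the proteins of mt-Atp6 and mt-Atp8. mt-Atp6 was at 2155 and 2254 CPM in Control against 4464, 3044 and 3817 CPM in PRC1 i2KO (log2 fold change 0.78 ± 0.17, edgeR adjusted p = 0.165). It had the lowest adjusted p of the mRNAs and passed with no filter on low counts (0.79, adjusted p = 0.0412). mt-Atp8 was at 135 and 192 CPM in Control against 505, 226 and 309 CPM in PRC1 i2KO, the largest log2 fold change of the 13 mRNAs and the one with the largest error (1.09 ± 0.33, adjusted p = 0.270). PRC1 i2KO 1 stood well above the other libraries, and without it no mRNA had a log2 fold change above 0.77.

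**Figure D2:**
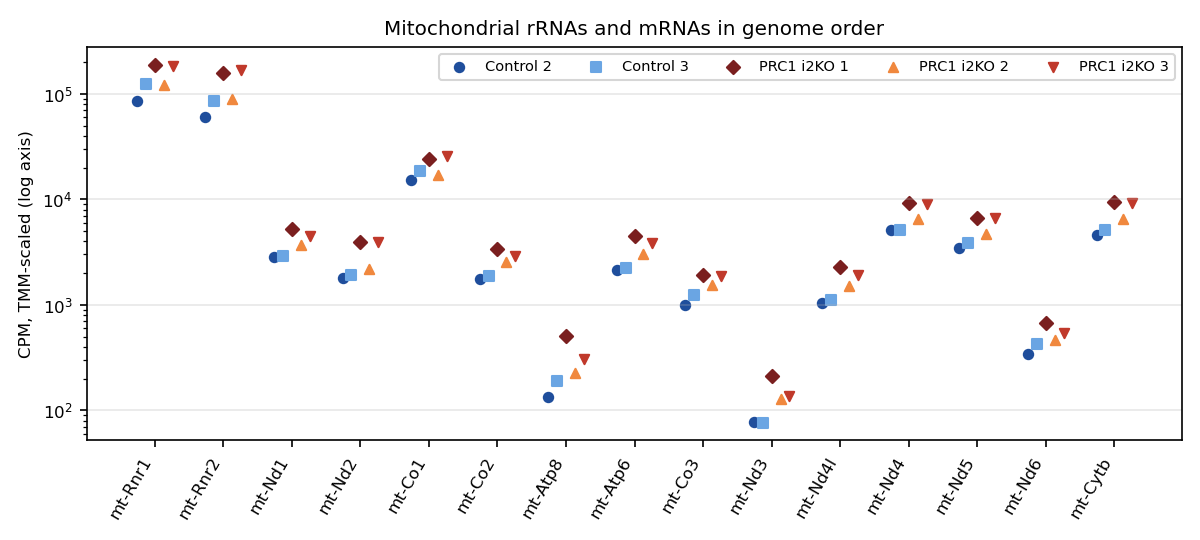
CPM (log axis, scaled by TMM library size) of the 2 rRNAs and 13 mRNAs in the order of their genes along the mitochondrial genome, 1 point per library. PRC1 i2KO 1 and 3 lie above the controls for every gene, and PRC1 i2KO 2 is the lowest of its group for all 15 and lies between the controls for mt-Rnr1 and mt-Co1.

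The libraries kept nearly the same order across genes. PRC1 i2KO 2 was the lowest PRC1 i2KO library for all 15 rRNAs and mRNAs, PRC1 i2KO 1 was the highest of all libraries for 13 of them, and Control 2 was the lowest of all for 14. The median log2 shift of the 13 mRNAs from the control mean was -0.055 and 0.053 in Control 2 and 3 and 0.90, 0.41 and 0.81 in PRC1 i2KO 1, 2 and 3. Genes of one precursor are not independent of each other. Cell division genes differed between the same libraries, with the summed CPM of 6 markers (all 6 tested) at 18.5 and 53.1 in the controls and at 252, 50.6 and 598 in PRC1 i2KO 1, 2 and 3. Interfollicular epidermis markers (all 4 tested) summed to 439 and 438 CPM in the controls and to 374, 1574 and 895 CPM in PRC1 i2KO, with the highest value in PRC1 i2KO 2. Fibroblast markers (3 of 5 tested) summed to 23.6 and 20.9 CPM in the controls and 57.0, 65.4 and 44.7 CPM in PRC1 i2KO, with Col3a1 at 0 in 4 libraries. Of that list Pdgfra was at 3.37 and 2.22 CPM in Control against 32.5, 25.4 and 16.01 CPM in PRC1 i2KO (log2 fold change 3.11, edgeR adjusted p = 0.0502), and Col1a1 was at 3.41 and 2.94 CPM in Control against 11.2, 19.7 and 7.89 CPM in PRC1 i2KO. Col1a2, the remaining tested member, overlapped, at 16.8 and 15.7 CPM in Control against 13.3, 20.3 and 20.8 CPM in PRC1 i2KO (log2 fold change 0.16, edgeR adjusted p = 0.910). Lum was at no more than 0.158 CPM in any library. Among bulge markers Cd34 (477 and 326 CPM against 298, 292 and 164 CPM), Lhx2 (659 and 718 against 508, 559 and 409) and Lgr5 (449 and 471 against 322, 315 and 382) lay below both controls throughout PRC1 i2KO. Of all genes, 15.3% lay below both in this way. Krt14, of the same list, lay above both throughout (695 and 832 against 1322, 1431 and 971), as did 14.6% of all genes. The other listed bulge markers overlapped between the groups, and the median log2 fold change of the list was -0.027. Ly6a, which encodes the Sca1 used to exclude cells in the sort, was at 1.62 and 0.793 CPM in Control against 3.12, 4.78 and 4.93 CPM in PRC1 i2KO. Genes induced by stress at isolation (all 10 tested) summed to 6662 and 6213 CPM in the controls and 4964, 5202 and 5695 CPM in PRC1 i2KO. The part of these genes in the mitochondrial values was not tested.

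Next, levels were compared between genes on the scale of CPM per kilobase of annotated length. In the controls mt-Co1 was highest, with 9907 and 12085 CPM per kilobase. mt-Cytb followed at 4010 and 4485, then mt-Nd4 at 3704 and 3723 and mt-Nd4l at 3506 and 3775, whose values overlapped. mt-Atp6 (3164 and 3310), mt-Nd1 (2968 and 3048) and mt-Co2 (2557 and 2757) came next and were separated from each other in both controls. Below them stood mt-Nd5 (1880 and 2126), mt-Nd2 (1747 and 1860) and mt-Co3 (1278 and 1580). mt-Atp8 (659 and 939) overlapped with mt-Nd6 (652 and 827), and mt-Nd3 was lowest (224 and 220). Genes of one heavy-strand precursor thus spanned a wide range of levels per length, with no steady fall along the genome, since mt-Cytb at its far end ranked second.

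The deposited TPM values placed the short genes differently. RSEM-type TPM divides by an effective length, and the ratio of deposited count to TPM over the 8 rRNAs and mRNAs of at least 900 bases implied a mean fragment of 187 and 177 bases in the controls and of 158, 173 and 174 bases in PRC1 i2KO. The annotated mt-Atp8 gene, at 204 bases, is hardly longer than such a fragment, and it overlaps mt-Atp6. In TPM, mt-Nd4l averaged 8704 in Control, above mt-Cytb at 5139 and mt-Nd4 at 4389, and mt-Atp8 averaged 2643, above mt-Nd5 at 2262. The level of these short mRNAs per length is therefore uncertain.

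The 3 mRNAs of shortest annotated length, mt-Atp8, mt-Nd4l (297 bases) and mt-Nd3 (348 bases), were among the 4 with the largest log2 fold changes. The other was mt-Nd2. Across the 13 mRNAs, log2 fold change in counts and log2 annotated length had a Pearson r of -0.64 and a Spearman rho of -0.44. Across the 10 mRNAs of at least 500 bases they had an r of -0.045 and a rho of 0.14. Both are descriptions across genes that share libraries and a precursor. For mt-Atp8 and mt-Nd4l, which overlap a neighbour, the annotated length may not be that of an RNA. In log2(TPM + 1), which allows for fragment length, mt-Atp8 (0.69), mt-Nd3 (0.60), mt-Nd2 (0.48) and mt-Cytb (0.45) had the largest differences. The implied fragment was shortest in PRC1 i2KO 1, where mt-Atp8 and mt-Nd3 were highest, and its part in their counts was not tested.

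**Figure D3:**
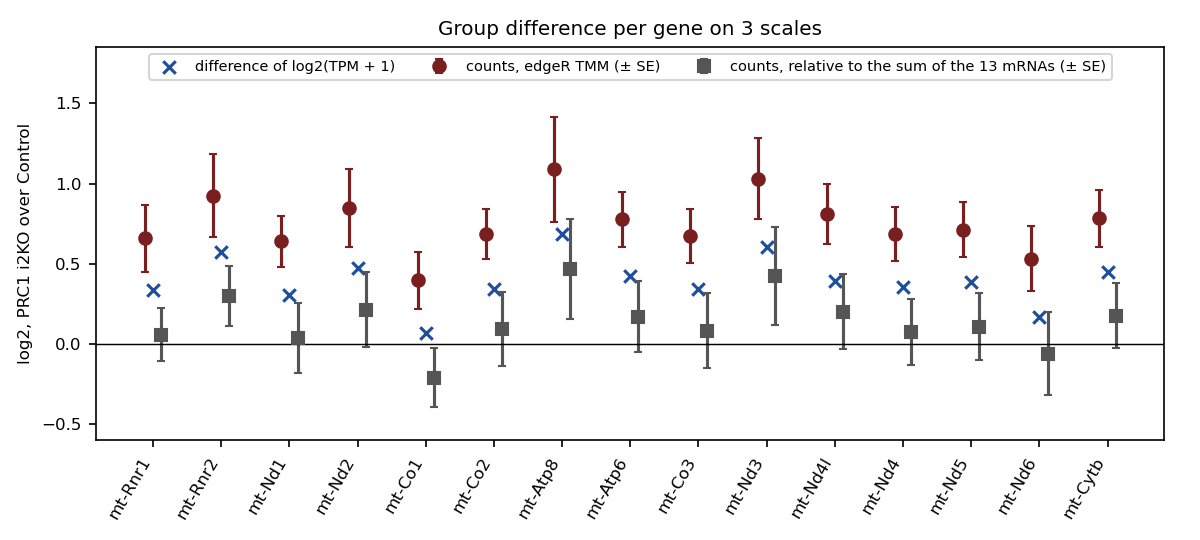
Log2 difference of PRC1 i2KO over Control for each rRNA and mRNA in genome order: edgeR log2 fold changes with TMM scaling (circles, ± SE), the same relative to the summed counts of the 13 mRNAs (squares, ± SE) and the difference of mean log2(TPM + 1) (crosses, no error drawn). With TMM scaling every gene lies above 0, from 0.40 for mt-Co1 to 1.09 for mt-Atp8, while relative to the class total they run from -0.21 to 0.47.

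The composition of the class was then examined with the summed counts of the 13 mRNAs in place of the library size, in a fit over all 22181 genes. None of the 13 mRNAs was called between groups (0 higher and 0 lower at an adjusted p under 0.05, against 0.0676% and 0.00902% of all genes, and 0 and 0 at an unadjusted p under 0.05, against 2.24% and 13.6%). Their log2 fold changes ran from -0.21 ± 0.18 (SE) for mt-Co1 to 0.47 ± 0.31 for mt-Atp8, with adjusted p between 0.435 and 0.936. A p above the threshold does not show that the proportions were equal, and standard errors of 0.18 to 0.31 leave room for moderate shifts. These errors draw on variation estimated over all genes fitted, and not on the spread of each mRNA alone. The median of all genes relative to this total was -0.57, so the shares of all genes are not a rate to expect for the mRNAs. On this scale mt-Rnr1 differed by 0.058 ± 0.17 (adjusted p = 0.866) and mt-Rnr2 by 0.30 ± 0.19 (adjusted p = 0.410).

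mt-Co1 took the largest part of the mRNA counts in every library, 38.7% and 41.6% in the controls and 33.7%, 34.1% and 36.5% in PRC1 i2KO. It was the one mRNA whose part was below both controls throughout PRC1 i2KO. mt-Cytb took 11.6% and 11.4% in the controls and 12.9%, 12.9% and 13.2% in PRC1 i2KO, and mt-Nd5 took 8.66% and 8.64% against 9.22%, 9.43% and 9.35%. The spread within each group was small beside the difference for mt-Cytb and mt-Nd5. The parts of a library sum to a fixed total, so a lower part of mt-Co1 by itself raises the other parts. How much of the higher parts of mt-Cytb and mt-Nd5 this makes up was not tested. With mt-Nd4l and mt-Atp8, mt-Cytb and mt-Nd5 made up the 4 mRNAs whose part was above both controls throughout PRC1 i2KO. Over all genes tested, the count relative to the same total was above both controls in this way for 4.43% and below both for 36.4%. These shares are not a rate to expect for the mRNAs. The mRNAs are parts of that total, while the median log2 fold change of all genes relative to it was -0.57. In parts computed from TPM, mt-Cytb and mt-Atp8 remained above and mt-Co1 below, while mt-Nd5 (4.18% and 4.30% against 4.26%, 4.41% and 4.52%) and mt-Nd4l (16.9% and 15.5% against 16.9%, 17.3% and 16.4%) overlapped. Exact permutation tests of single parts cannot go below p = 0.2 in this design. mt-Nd4 held 12.9% and 11.4% in the controls and 12.8%, 12.9% and 12.8% in PRC1 i2KO, and overlapped. The sign of mt-Nd1 turned with TPM (-0.032), and with a trimmed mean over the mRNAs as the scale, those of mt-Nd1, mt-Nd4, mt-Nd5, mt-Co2 and mt-Co3 turned.

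The tRNA features held few counts, which came mainly from a pair of them. mt-Ts1 (tRNA-Ser), shown above, held 882 and 351 counts in Control against 1117, 1650 and 766 in PRC1 i2KO, or 67.8% and 78.3% of tRNA counts in the controls and 79.6%, 73.6% and 60.2% in PRC1 i2KO. In CPM it was at 17.9 and 27.8 in the controls and at 51.2, 37.2 and 24.2 in PRC1 i2KO, so PRC1 i2KO 3 lay between the controls (log2 fold change 0.72 ± 0.36 (SE), edgeR adjusted p = 0.518). mt-Tp (tRNA-Pro) held 228 and 33 counts in Control against 129, 247 and 365 in PRC1 i2KO. In CPM it was at 4.63 and 2.62 in the controls and at 5.91, 5.57 and 11.5 in PRC1 i2KO, without overlap (1.07 ± 0.58, adjusted p = 0.555).

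The next tRNAs were far lower. mt-Tl1 (tRNA-Leu), which sits between mt-Rnr2 and mt-Nd1, held 24 and 21 counts in Control against 49, 96 and 31 in PRC1 i2KO (0.77 ± 0.91, adjusted p = 0.821). mt-Te (tRNA-Glu) held 29 and 13 counts in Control against 17, 58 and 17 in PRC1 i2KO (0.13 ± 0.97, adjusted p = 0.977). mt-Tm (tRNA-Met) held 14 and 3 counts in Control against 26, 48 and 10 in PRC1 i2KO (1.70 ± 1.14, adjusted p = 0.650). At these counts a difference of the size seen for the mRNAs was not detectable. The sign of mt-Te turned with upper-quartile factors (-0.011), library totals (-0.089) and TPM (-0.16). Of the 8 tested tRNAs, 2 (mt-Tp and mt-Tm) had both controls below all PRC1 i2KO libraries in CPM, as had 14.6% of all genes. Of the 21 tRNAs, 16 had under 100 counts over all libraries, 6 under 10 counts and 9 had no count in at least 1 library. A count of 0 allows up to 3 counts, or 0.0609 to 0.238 CPM by library. The 13 tRNAs left out by the filter on low counts were therefore not tested.

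The 8 light-strand tRNAs held 93.5% and 92.0% of tRNA counts in the controls and 92.8%, 90.9% and 94.0% in PRC1 i2KO, and the 13 heavy-strand tRNAs held the rest. This division was alike in both groups and comes largely from mt-Ts1 and mt-Tp. Each light-strand tRNA gene lies opposite a stretch that the heavy-strand precursor spans, and mt-Ts1 lies beside and partly opposite the end of mt-Co1. Without a stated strand setting, reads from the opposite transcript cannot be told apart from the tRNA's own. Counts of tRNA per mRNA count were 0.000667 and 0.000792 in the controls and 0.000889, 0.00101 and 0.000571 in PRC1 i2KO, and overlapped (log2 difference 0.14, exact permutation p = 0.8). That difference turned to -0.030 without PRC1 i2KO 2.

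**Figure D4:**
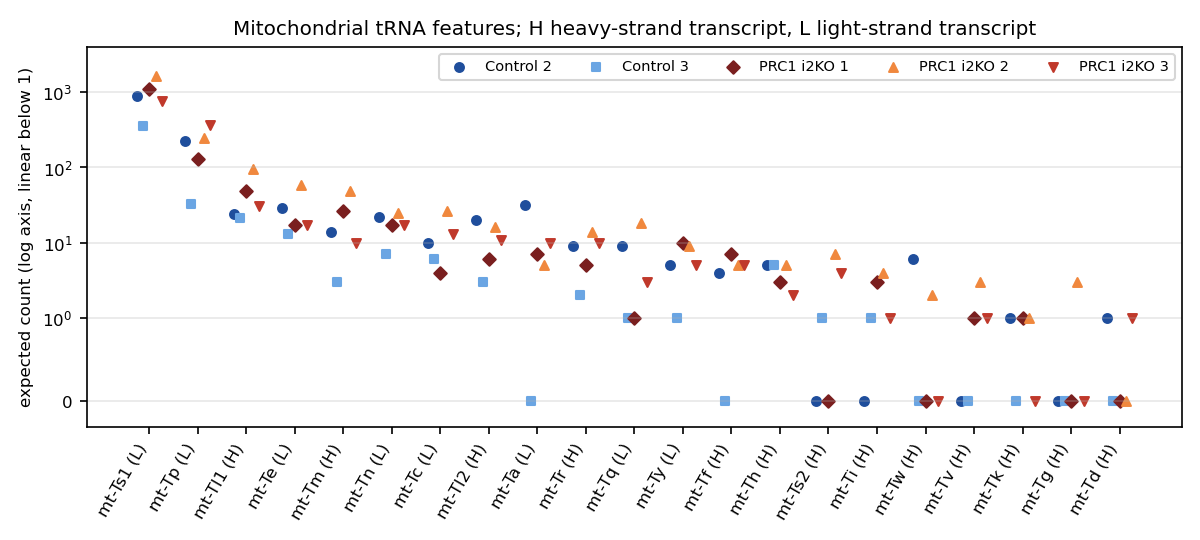
Expected counts of the 21 tRNA features, ordered by their total, 1 point per library (log axis, linear below 1, with H and L for the heavy- and light-strand precursor). mt-Ts1, at 351 to 1650 counts, and mt-Tp, at 33 to 365, lie above the rest, and 9 tRNAs are at 0 in at least 1 library.

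Near-identical nuclear copies can take reads from this class, and the counts given to them varied widely between libraries. In the reference transcripts, Gm10925 matches mt-Atp6 over 678 bases at 100% identity. It was given 826 and 1927 counts in Control against 1267, 28.1 and 4394 in PRC1 i2KO, or 0.772%, 6.35%, 1.28%, 0.0208% and 3.51% of the counts shared by both. Gm29216, the copy of the end of mt-Co1 shown above, held 2.78% and 1.95% of the counts shared with mt-Co1 in the controls and 3.53%, 4.98% and 0.732% in PRC1 i2KO. Neither followed the groups. Copies of mt-Co3 (Gm28437, 783 bases), mt-Co2 (Gm28661, 681 bases), mt-Nd4l (Gm10222, 294 bases) and the first 876 bases of mt-Nd4 (Gm28439), all at 100% identity, and of mt-Nd3 (Gm28438, 345 bases at 99.7%) were not analysed here. The levels of these mt genes are uncertain to the extent that reads were given to their copies. When the counts of the copies in the table were added to their mt gene, the log2 fold change was 0.41 for mt-Co1 and 0.75 for mt-Atp6, and the mRNA median stayed at 0.71. Among the annotated pseudogene transcripts searched, no copy of the kind was found for mt-Nd1, mt-Atp8, mt-Rnr1 or mt-Rnr2 at 90% identity over at least 100 bases. Nuclear copies that are not annotated were not searched.

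Nuclear genes that act on mitochondrial DNA and RNA were described from lists, with no list tested. Of the 10 genes of mitochondrial transcription, 0 passed in either direction (median log2 fold change 0.44, beside 0.0053 over all genes). The mitochondrial RNA polymerase gene Polrmt was at 6.48 and 9.12 CPM in Control against 20.8, 14.7 and 22.2 CPM in PRC1 i2KO, without overlap (log2 fold change 1.31 ± 0.37, edgeR adjusted p = 0.242). Mrpl12, a ribosomal protein gene also tied to transcription, was at 6.64 and 6.74 CPM in Control against 12.1, 9.47 and 16.7 CPM in PRC1 i2KO (log2 fold change 0.93 ± 0.41, edgeR adjusted p = 0.463). Tfam, which packages mitochondrial DNA and starts transcription, was named after its values were seen and was at 12.7 and 8.89 CPM in Control against 16.8, 15.1 and 19.7 CPM in PRC1 i2KO (log2 fold change 0.67 ± 0.34, edgeR adjusted p = 0.531). Each of these lay above the controls in all PRC1 i2KO libraries, as did 14.6% of all genes, and none passed. Polrmt and Mrpl12 had the smallest p of the list. Of the 10 genes, 8 had a positive log2 fold change. Mterf4 (-0.42 ± 0.33, adjusted p = 0.712) and Mterf2 (-0.0060 ± 0.80, adjusted p = 0.999) were negative, both with overlap.

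Of the 13 genes of mitochondrial DNA replication 0 passed (median 0.15), with the helicase gene Twnk at 8.30 and 3.89 CPM in Control against 22.2, 13.3 and 10.1 CPM in PRC1 i2KO, without overlap (edgeR adjusted p = 0.396). For the catalytic subunit of the polymerase, Polg, the log2 fold change was 0.45 ± 0.30 (adjusted p = 0.642). Of the 19 genes of mitochondrial RNA processing tested 0 passed (median 0.21), among them the 16S rRNA methyltransferase Mrm3 (1.32 ± 0.52, adjusted p = 0.408), the tRNA-modifying enzyme Trit1 (0.75 ± 0.36, adjusted p = 0.490) and the tRNA 3′ nuclease Elac2 (0.73 ± 0.37, adjusted p = 0.524). Of the 18 genes of mitochondrial RNA stability tested 0 passed (median 0.19). Of these, Fastkd5 (1.12 ± 0.51, adjusted p = 0.476) and Fastk (0.72 ± 0.40, adjusted p = 0.567), of a family of mitochondrial RNA-binding proteins, had the smallest p. Lrpprc, which stabilises mitochondrial mRNAs, was at 54.7 and 44.1 CPM in Control against 34.6, 48.0 and 45.4 CPM in PRC1 i2KO, with overlap (-0.21 ± 0.24, adjusted p = 0.811).

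The nuclear-encoded subunits lay higher on the same scale, with none past the threshold. All 41 listed nuclear subunits of complexes I, III, IV and V had a positive log2 fold change (median 0.63), and 0 passed. At an unadjusted p under 0.05, 20 were higher and 0 lower, beside 7.43% and 3.51% of all genes. Of these 41, 25 had both controls below all PRC1 i2KO libraries, beside 14.6% of all genes. Their summed CPM was 1673 and 1830 in the controls and 3298, 2378 and 2588 in PRC1 i2KO, so PRC1 i2KO 2 was the lowest of its group as for the mt-encoded mRNAs.

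By complex the medians were 0.48 for complex I (7 genes), 0.41 for complex III (9), 0.70 for complex IV (10) and 0.65 for the ATP synthase (15). In complex I, Ndufv1 differed by 0.86 ± 0.25 (edgeR adjusted p = 0.253), Ndufs7 by 0.71 ± 0.25 (adjusted p = 0.340) and Ndufs1 by 0.14 ± 0.23 (adjusted p = 0.879). In complex III, Uqcrh differed by 0.90 ± 0.25 (edgeR adjusted p = 0.241), Uqcr10 by 0.73 ± 0.32 (adjusted p = 0.459) and the cytochrome c1 gene Cyc1 by 0.16 ± 0.24 (adjusted p = 0.867). The members of these complexes thus ranged from near the median of all genes to well above it. Cox8a, a small subunit of complex IV, was at 43.5 and 48.0 CPM in Control against 102, 96.4 and 80.0 CPM in PRC1 i2KO (log2 fold change 1.02 ± 0.21, edgeR adjusted p = 0.146). Cox6c of the same complex differed by 1.20 ± 0.33 (adjusted p = 0.231) and Cox4i1 by 0.62 ± 0.29 (adjusted p = 0.482). Atp5g3, which encodes the ring subunit c of the ATP synthase, was at 39.8 and 46.6 CPM in Control against 101, 74.4 and 77.2 CPM in PRC1 i2KO (log2 fold change 0.97 ± 0.23, edgeR adjusted p = 0.179). For Atp5l the difference was 0.84 ± 0.22 (adjusted p = 0.215) and for Atp5a1, of the catalytic head, 0.73 ± 0.22 (adjusted p = 0.270).

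Genes of the mitochondrial ribosome, which translates only the 13 mRNAs, had a median of 0.34 over 80 members, of which 63 were positive. None passed, while 9 of 80 were higher and 1 lower at an unadjusted p under 0.05, beside 7.43% and 3.51% of all genes. Both controls lay below all PRC1 i2KO libraries for 27 of the 80, beside 14.6% of all genes. Mrpl52 was at 17.5 and 22.6 CPM in Control against 45.8, 36.5 and 36.4 CPM in PRC1 i2KO (log2 fold change 0.98 ± 0.26, edgeR adjusted p = 0.228). Mrps21 differed by 0.90 ± 0.32 (adjusted p = 0.347) and Dap3, a small-subunit protein, by 0.35 ± 0.33 (adjusted p = 0.763).

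Of 12 nuclear markers of mitochondrial mass, 10 were positive (median 0.49) and 0 passed. Tomm22, of the outer-membrane import complex, was at 39.0 and 40.5 CPM in Control against 72.6, 67.0 and 55.9 CPM in PRC1 i2KO (log2 fold change 0.71 ± 0.22, edgeR adjusted p = 0.277). The citrate synthase gene Cs was at 70.2 and 65.8 CPM in Control against 89.3, 110 and 111 CPM in PRC1 i2KO (log2 fold change 0.61 ± 0.20, edgeR adjusted p = 0.306). Tomm20, of the same import complex as Tomm22, differed by 0.087 ± 0.19 (adjusted p = 0.913).

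Regulators of mitochondrial biogenesis showed no common direction, with 6 of 11 positive, a median of 0.0022 and 0 passed. The coactivator gene Ppargc1a was at 19.1 and 15.2 CPM in Control against 15.3, 25.9 and 14.6 CPM in PRC1 i2KO (log2 fold change 0.11 ± 0.35, edgeR adjusted p = 0.948). The nuclear receptor gene Ppard differed by -0.40 ± 0.23 (adjusted p = 0.578) and Esrra, another, by 0.93 ± 0.74 (adjusted p = 0.711). Of 14 tested genes of the mitochondrial unfolded protein and integrated stress responses, 13 were positive with a median of 0.61, and 0 passed. The serine synthesis gene Psat1, a target of ATF4, was at 5.66 and 9.20 CPM in Control against 40.2, 7.71 and 52.0 CPM in PRC1 i2KO (log2 fold change 2.18 ± 0.70, edgeR adjusted p = 0.303). Its groups overlapped, since PRC1 i2KO 2 lay between the controls. The transcription factor gene Atf5 differed by 2.11 ± 0.76 (adjusted p = 0.357). Atf4 itself was at 140 and 135 CPM in Control against 171, 151 and 170 CPM in PRC1 i2KO (0.25 ± 0.17, adjusted p = 0.642).

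**Figure D5:**
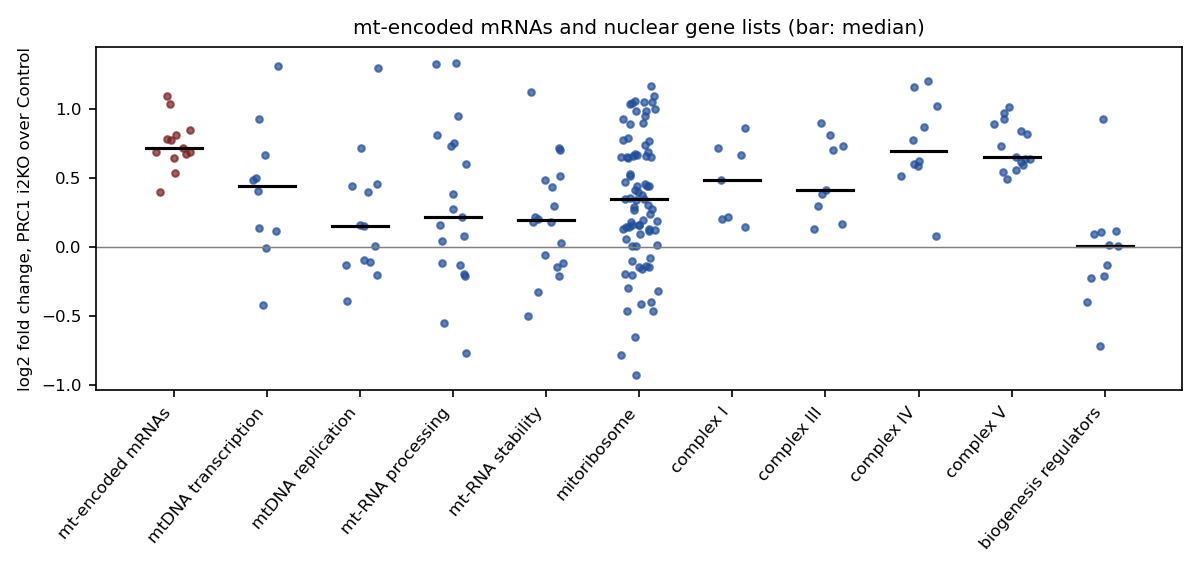
Log2 fold change (PRC1 i2KO over Control, edgeR) of each tested gene in the 13 mt-encoded mRNAs and in lists of nuclear genes, 1 point per gene with the median as a bar. The mt-encoded mRNAs (median 0.71) and the nuclear subunits of complexes I, III, IV and V (medians 0.48, 0.41, 0.70 and 0.65) all lie above 0. The biogenesis regulators (median 0.0022) lie on both sides.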

How the data were processed

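RNA (50 ng, integrity number above 8) was poly(A)-selected with Universal Plus mRNA-Seq and sequenced on an Illumina HiSeq, per the labels' protocols. RSEM 1.3.3, STAR 2.7.9a, DESeq2 1.38.2 and build mm39 appear, without roles, in the submitters' processing notes. How the counting treated strand is not given there. For each feature and library the authors deposited both an expected count and its TPM in 1 table. Expected counts were rounded for tests and TPM values were used as deposited. The test was edgeR 4.0.16's quasi-likelihood F test under R 4.3.3, after filterByExpr and TMM, on group alone. P-values were adjusted by Benjamini-Hochberg across all genes, with a threshold of 0.05, and the code was checked on simulated counts. Composition was tested in the same way with the summed counts of the 13 mRNAs as library size. Shares and ratios were compared by exact permutation over libraries. DESeq2 1.42.0, limma 3.58.1, other scalings, no filter, replicate blocks and leaving out each library were alternatives. The ± beside a fold change is its standard error. Nuclear copies were found by aligning GENCODE M21 transcripts (GRCm38), and all 36 members matched by versioned identifier. All rRNAs and mRNAs were named, the 5 tRNAs of highest count, and of each nuclear list acting on mitochondria the first member and the 2 of smallest p. Tfam, and the markers of other cells given beside the results, were picked after their values were seen. The members and lists were chosen with earlier results of these data known. Summing nuclear copies onto their mt genes was added after seeing the data.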

Additional observations from a re-analysis of the deposited data

How the results depend on the processing

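No alternative called a mitochondrial gene lower, and every one that gave a log2 fold change for the 13 mRNAs kept it positive. The number called higher, 0 by edgeR, was 9 by DESeq2 and 2 with no filter on low counts. It was 1 with the replicate block by title number (mt-Rnr2, log2 fold change 0.76, edgeR adjusted p = 0.0407). It was 0 to 3 when each PRC1 i2KO library was left out, with 3 (mt-Nd2, mt-Rnr2 and mt-Cytb) without PRC1 i2KO 2. Over all genes, edgeR called 28 higher and 0 lower of 22181, and DESeq2 called 745 and 163 of 30631. With no filter the calls were 140 and 12 of 30633, and without PRC1 i2KO 2 they were 39 and 4 of 21216. The mRNA median of 0.71 was 0.44 with library totals only and 0.39 in log2(TPM + 1) and log2(TPM + 0.1), and ran from 0.63 to 0.86 when each library was left out. Within the class, each alternative called 0 mRNAs. The share differences ran from 5.13 to 11.2 points (rRNA), 0.952 to 1.61 (mRNA), 0.000932 to 0.00190 (tRNA) and 6.18 to 12.8 (all) when each library was left out, and kept their sign. Against protein-coding counts alone they were 15.3 (rRNA), 2.54 (mRNA), 0.00245 (tRNA) and 17.9 (all), and without mt-rRNA in the total 2.39 (mRNA) and 0.00230 (tRNA). The log2 ratio differences then ran from 0.16 to 0.32 (16S over 12S), -0.00035 to 0.34 (rRNA over mRNA), -0.15 to 0.028 (mt-Nd6) and -0.030 to 0.38 (tRNA over mRNA).

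Signs that turned were all of differences that passed no threshold. For mt-Tl2 the log2 fold change was 0.0019 by edgeR and -0.12 with upper-quartile factors, -0.26 with library totals, -0.10 by limma-voom, -0.19 in both TPM scales, -0.0072 with the replicate block by description number, -0.29 without Control 3 and -0.047 without PRC1 i2KO 3. For mt-Te it was -0.011 with upper-quartile factors, -0.089 with library totals, -0.16 in both TPM scales, -0.23 without Control 2 and -0.29 without PRC1 i2KO 2. For mt-Tc it was -0.044 in log2(TPM + 1), -0.050 in log2(TPM + 0.1), -0.26 without Control 2 and -0.12 without PRC1 i2KO 2. Within the class, the trimmed mean gave -0.053 for mt-Co3, -0.027 for mt-Nd5, -0.099 for mt-Nd1, -0.058 for mt-Nd4 and -0.045 for mt-Co2. Without Control 3, mt-Nd1 was at -0.032, mt-Nd4 at -0.0071 and mt-Nd6 at 0.023, without PRC1 i2KO 2 mt-Nd1 was at -0.0039, without PRC1 i2KO 3 mt-Nd6 was at 0.026, and TPM shares gave -0.032 for mt-Nd1. Over all libraries left out in turn, mt-Tl2 ran from -0.29 to 0.46, mt-Te from -0.29 to 0.58 and mt-Tc from -0.26 to 0.97, and within the class mt-Nd1 ran from -0.032 to 0.11, mt-Nd4 from -0.0071 to 0.17 and mt-Nd6 from -0.14 to 0.026. The cause was not tested.

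Titles and descriptions number the controls differently, and numbers pair 2 libraries at most. Deviations from the group mean of same-numbered libraries correlated at 0.083 and 0.054 by title and at -0.029 and -0.083 by description. Deviations of 2 controls from their mean are equal and opposite, so 0.083 and -0.083, both for number 2, are not separate evidence. The numbers were not taken as pairs. The replicate block changed no call of a mitochondrial gene other than that of mt-Rnr2, and moved the calls over all genes from 28 higher and 0 lower to 140 and 25 by title and to 10 and 0 by description. Leaving out a control leaves 1, which is then assumed to vary like the other group. Depth limits the tRNAs, most of which hold fewer than 100 counts.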
